A study of Homo sapiens with 6 samples.

Results

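The genes described here are 50 interferon-stimulated effector genes, chosen by symbol from the 21462 genes of the RNA-seq count table. They are the effectors outside the IFIT, OAS and MX families, the RNA sensors and the STAT factors. All 50 were present in the table, and 49 had enough reads to be tested between control and Desmoglein-2 knockout cells.

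PolyA RNA from A431 cells, a human epidermoid carcinoma line used as a model of keratinocytes, was sequenced to ask how loss of Dsg2, a cadherin of the desmosome, changes gene expression. Control cells, labelled WT (A431CT, n = 3 libraries), were compared with cells carrying a CRISPR/Cas9 knockout of DSG2 (Dsg2KO, n = 3 libraries). Both lines were grown in DMEM with serum, and the labels name no added interferon. Both came from another laboratory, the sources used here do not say whether Dsg2KO is 1 clone, and the libraries of a group are replicates of 1 line, so a difference between the lines and an effect of the edit cannot be told apart. The study describes the libraries of a line as biological replicates, and p-values measure the spread between them.

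Interferons bind cell surface receptors and, through JAK kinases, activate transcription factors of the STAT family. Type I and type III interferons lead to the ISGF3 complex, which includes IRF9 and binds the interferon-stimulated response element (ISRE) in promoters. The products of the target genes block viral entry, RNA handling, translation or budding, or tag proteins with the ubiquitin-like modifier ISG15. In epithelial cells many of them are also made at a low level without added interferon.

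Loss of DSG2 was visible in the counts. DSG2 was at 330.0, 320.3 and 318.8 CPM (counts scaled to a common library size) in the A431CT libraries and at 50.9, 55.2 and 49.7 CPM in the Dsg2KO libraries. The log2 fold change was -2.64 (SE 0.05, adjusted p = 1.29e-14, edgeR). Library totals lay between 12845719 and 16255692 counts, so 3 counts in a library corresponded to 0.184 to 0.236 CPM. The first principal component (48.6% of the variance) separated the lines. Of 12 keratinocyte markers 11 were tested, while the basal keratin KRT14 had at most 2 counts in any library. The summed levels, mostly EGFR, were 11500 to 12243 CPM in A431CT and 12163 to 12536 CPM in Dsg2KO. Thresholds were a change of at least 0.5 on the log2 scale together with an adjusted p under 0.05 (edgeR). KRT6A was lower by these thresholds (log2 fold change -1.03) and 0 were higher. Without the minimum change, 4 were lower, KRT6A included, and 3 were higher, EGFR (0.11) included. Markers of leukocytes summed to 782 to 818 CPM in A431CT and 662 to 680 CPM in Dsg2KO, with the defining marker PTPRC at a mean of 0.353 and 0.188 CPM. Most of the sum was CSF1R (means of 552 and 502 CPM) and CD68 (239 and 156 CPM). By the same thresholds CD68 was lower (log2 fold change -0.62), and 0 were higher. Markers of fibroblasts and endothelium summed to 8.61 to 11.4 CPM and 15.1 to 15.8 CPM. Of the 3 tested, the endothelial markers PECAM1 (0.54) and CDH5 (0.76) were higher by these thresholds and 0 were lower. The part of these shifts in the results was not tested.

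For the promoters, RefSeq windows (GRCh38.p14, from 250 bases before to 50 bases after the start) were matched by symbol to 43 of the 50 genes. The ISRE core searched was GAAANNGAAA on both strands, which can overlap itself. It was present in 24 of the 43 windows (55.8%), against 2.84% of the 10035 windows of tested genes. The GAS core TTCNNNGAA, an element linked to the response to interferon gamma, was present in 10 of 43 (23.3%) against 6.22% of the windows of tested genes. Stretches of 60 bases are shown for 3 genes that rose in Dsg2KO cells (IFI27, IFI44L, RTP4), for ISG15, for the neighbour of IFI44L (IFI44) and for BST2, which carries overlapping copies of the core and did not pass the test. They are written from 5′ to 3′ on the strand of the gene, and capitals mark the core or its reverse complement.
ISG15 (chr1:1013365-1013424, + strand): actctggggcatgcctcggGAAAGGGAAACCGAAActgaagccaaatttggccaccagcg
IFI27 (chr14:94110616-94110675, + strand): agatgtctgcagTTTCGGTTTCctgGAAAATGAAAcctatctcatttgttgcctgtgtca
IFI44L (chr1:78620350-78620409, + strand): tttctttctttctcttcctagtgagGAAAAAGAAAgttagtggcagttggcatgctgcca
IFI44 (chr1:78649729-78649788, + strand): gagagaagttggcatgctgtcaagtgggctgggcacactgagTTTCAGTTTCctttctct
RTP4 (chr3:187368325-187368384, + strand): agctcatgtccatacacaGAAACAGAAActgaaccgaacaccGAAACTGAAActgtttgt
BST2 (chr19:17405720-17405779, - strand): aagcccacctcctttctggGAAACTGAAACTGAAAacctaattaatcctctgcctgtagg

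The effectors CMPK2, RSAD2, IFI44L, TRIM22, HERC6, HERC5, XAF1, DDX60, IFI27 and RTP4, in order of the size of change, rose in Dsg2KO cells. These 10 of 49 tested genes passed an adjusted p under 0.05 with a log2 fold change of at least 0.5, against 2.99% of the 12857 tested genes in that direction. The count in the lower direction was 0, against 3.03% of all tested genes (edgeR and DESeq2 both 0), with 1 gene, GBP2, lower at an unadjusted p under 0.05 (20.04% of all tested genes were). With the adjusted p alone, 27 of 49 were higher and 0 lower, against 14.3% and 15.3% of all tested genes. Of these 27, 18 passed the adjusted p in every alternative fit. The other 9 missed it in at least 1, and among them USP18, NT5C3A, HELZ2 and XAF1 missed it with DESeq2. The remaining 5 missed it when 1 library was left out, SAMHD1 and IFITM1 without Dsg2KO 1, EIF2AK2 without A431CT 1, A431CT 3 or Dsg2KO 3, LY6E without A431CT 3, Dsg2KO 1 or Dsg2KO 2, and IFI16 without A431CT 3, Dsg2KO 2 or Dsg2KO 3. NT5C3A also missed it without A431CT 1, and HELZ2 without A431CT 1, A431CT 2, Dsg2KO 1 or Dsg2KO 2. In 30 of 49 every Dsg2KO library lay above every A431CT library, against 21.2% of all tested genes. Every Dsg2KO library lay below in 0 of 49, against 2752 of the 12857 tested genes.

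Most of the changes were small. The log2 fold change was positive in 45 of 49 genes, compared with 49.1% of all tested genes, and its median was 0.17, compared with -0.0048 over all tested genes. It was below 0 in 4 genes, between 0 and 0.25 in 27, between 0.25 and 0.5 in 8, between 0.5 and 1 in 6, and at least 1 in 4. The range ran from -0.38 for GBP2 to 2.27 for CMPK2. Within libraries the same set summed to 5504, 5522 and 5318 CPM in A431CT and 6075, 6138 and 5929 CPM in Dsg2KO. The groups did not overlap in this sum, and A431CT 3 was the lowest library.

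**Figure D1:**
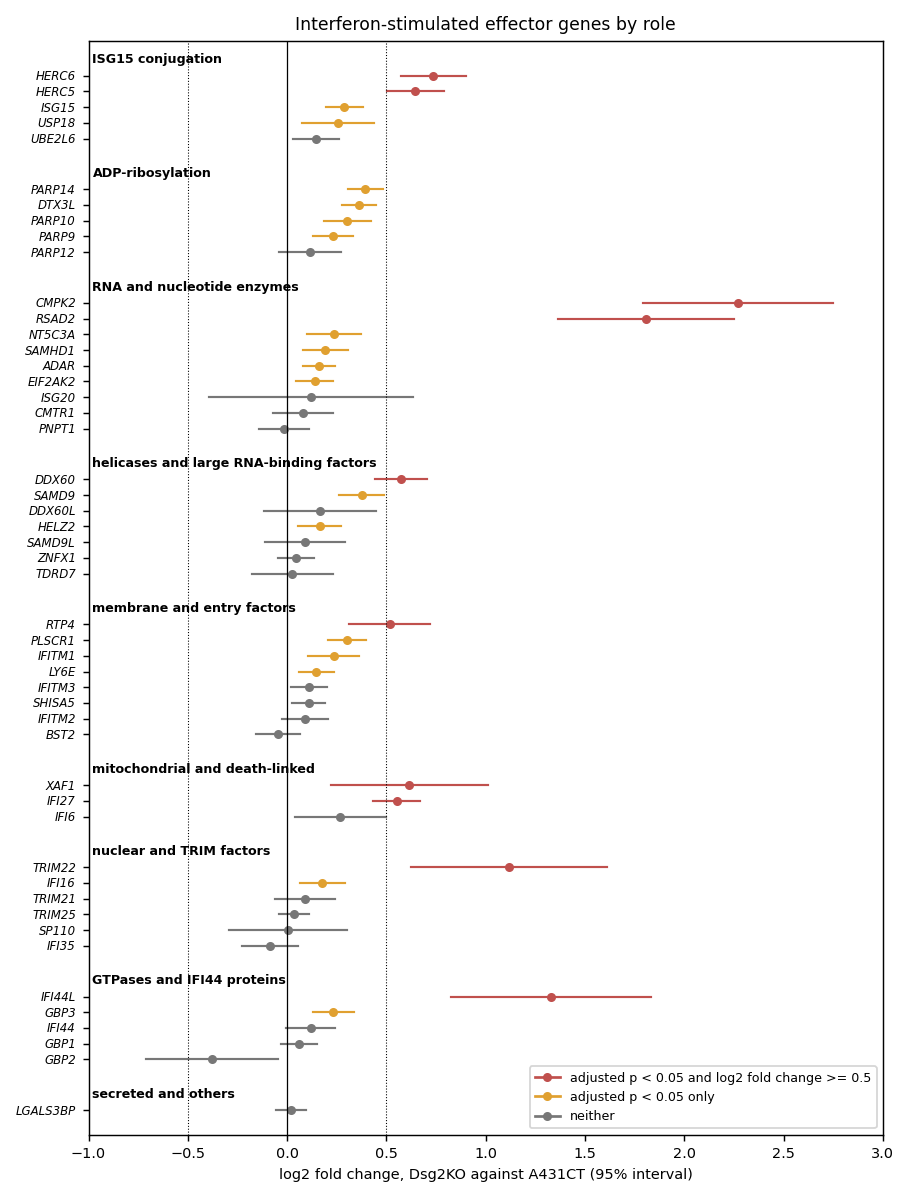
Points show the log2 fold change (Dsg2KO against A431CT, x axis) of each tested gene with its 95% interval, grouped by role, with dotted lines at 0.5 in either direction. Of the 49 genes, 10 lie past both thresholds (red), another 17 pass the adjusted p alone (orange), and CMPK2 and RSAD2 lie furthest to the right.

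ISG15 is a ubiquitin-like protein that is joined to target proteins by the E2 enzyme UBE2L6 and the HECT ligase HERC5 and is removed by USP18. HERC6 (chr4:88378739-88443097, GRCh38, plus strand) is a close relative of HERC5 (chr4:88457119-88506163, plus strand) and is encoded beside it. All 5 genes of this group had higher values in each Dsg2KO library than in any A431CT library, and 2 of 5 passed both thresholds. HERC6 was at 20.1, 23.7 and 22.5 CPM in A431CT and at 37.2, 35.5 and 37.7 CPM in Dsg2KO. The groups lay well apart, with a log2 fold change of 0.74 (SE 0.08, adjusted p = 5.29e-06, edgeR). HERC5 was at 29.4, 27.9 and 29.3 CPM in A431CT and at 46.6, 42.2 and 46.6 CPM in Dsg2KO. The A431CT libraries were close to one another and all Dsg2KO libraries were higher, with a log2 fold change of 0.64 (SE 0.07, adjusted p = 5.58e-06).

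The modifier itself changed less than HERC5 and HERC6. ISG15 was at 119.0, 128.2 and 117.1 CPM in A431CT and at 146.6, 152.0 and 146.6 CPM in Dsg2KO, with no overlap. Its log2 fold change was 0.29 (SE 0.04, 95% interval 0.19 to 0.38, adjusted p = 1.97e-04, edgeR), which did not reach the fold change threshold. USP18, which also dampens signaling at the type I receptor, had a log2 fold change of 0.26 (adjusted p = 0.033), which did not hold with DESeq2 (0.149) or without any 1 of the 6 libraries (0.054 to 0.099, within 0.022 to 0.149 over all alternatives). For UBE2L6 the value was 0.15 (adjusted p = 0.056).

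The ADP-ribosylation group holds PARP14, PARP10 and PARP12, which attach single ADP-ribose units to proteins, and PARP9 with its partner DTX3L, an E3 ubiquitin ligase. None of the 5 reached the fold change threshold. In the higher direction 4 of 5 passed the adjusted p alone, against 14.3% of all tested genes. The same number passed an unadjusted p under 0.05, against 19.5% of all tested genes. PARP14 was at 176.9, 175.9 and 167.2 CPM in A431CT and at 235.0, 224.8 and 223.5 CPM in Dsg2KO. The replicates were tight and the groups separate, which gave PARP14 the third smallest adjusted p among the 49 genes (5.19e-06, edgeR) at a log2 fold change of 0.39 (SE 0.04). DTX3L had a log2 fold change of 0.36 (SE 0.04), PARP10 one of 0.30 (SE 0.06) and PARP9 one of 0.23 (SE 0.05). PARP12 did not pass, at 0.12 (95% interval -0.04 to 0.27). PARP10 shares 324 exon bases with GRINA and 197 with SPATC1, both on the opposite strand. GRINA had 2690 to 3873 counts and a log2 fold change of 0.17 (adjusted p = 0.0044, edgeR). SPATC1, with 17 to 119 counts, fell by 2.61 on the log2 scale. The part of these overlaps in the PARP10 value was not tested.

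The largest changes were in CMPK2 and RSAD2. RSAD2 (viperin) converts CTP into a chain-terminating nucleotide that stalls viral RNA synthesis, and CMPK2 is a mitochondrial nucleotide kinase. They are encoded head to head on chromosome 2 with their starts 1078 bases apart, CMPK2 at chr2:6840570-6866635 on the minus strand and RSAD2 at chr2:6865557-6898239 on the plus strand (GRCh38, GENCODE). They share 351 exon bases on opposite strands, so reads from that stretch cannot be assigned to either without strand information. CMPK2 had 22, 19 and 17 counts in the A431CT libraries and 109, 99 and 132 in the Dsg2KO libraries. The groups did not overlap, and mean levels were 1.48 ± 0.218 CPM in A431CT and 7.18 ± 1.06 CPM in Dsg2KO (SD, n = 3), a 4.82-fold difference. The log2 fold change was 2.27 (SE 0.22, adjusted p = 3.52e-06, edgeR). RSAD2 had 22, 25 and 31 counts in A431CT and 96, 117 and 119 counts in Dsg2KO. All Dsg2KO libraries were again higher, with a log2 fold change of 1.81 (SE 0.21, adjusted p = 1.35e-05). The windows of both genes lack the ISRE core as searched. Both genes stayed at a low level: per kilobase of exon, RSAD2 reached 1.23 CPM in Dsg2KO, compared with 171.2 CPM for ISG15.

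The other RNA and nucleotide enzymes moved little. NT5C3A, a pyrimidine nucleotidase, SAMHD1, which degrades deoxynucleotides, ADAR, which deaminates adenosines in double-stranded RNA, and EIF2AK2 (PKR), the kinase that shuts off translation, passed the adjusted p alone. Their log2 fold changes lay between 0.14 for EIF2AK2 and 0.24 for NT5C3A. TLDC2, on the opposite strand, overlaps 9.9% of the exon bases of SAMHD1. The log2 fold change was 0.19 for SAMHD1 and 0.20 for TLDC2 (adjusted p = 0.013, edgeR). Without strand information, reads from the shared stretch cannot be assigned to either. The cap methyltransferase CMTR1 (0.08), the exonuclease ISG20 (0.12) and the mitochondrial RNA phosphorylase PNPT1 (-0.02) did not pass. ISG20 had the widest 95% interval of the group, -0.39 to 0.63, with counts between 39 and 92.

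**Figure D2:**
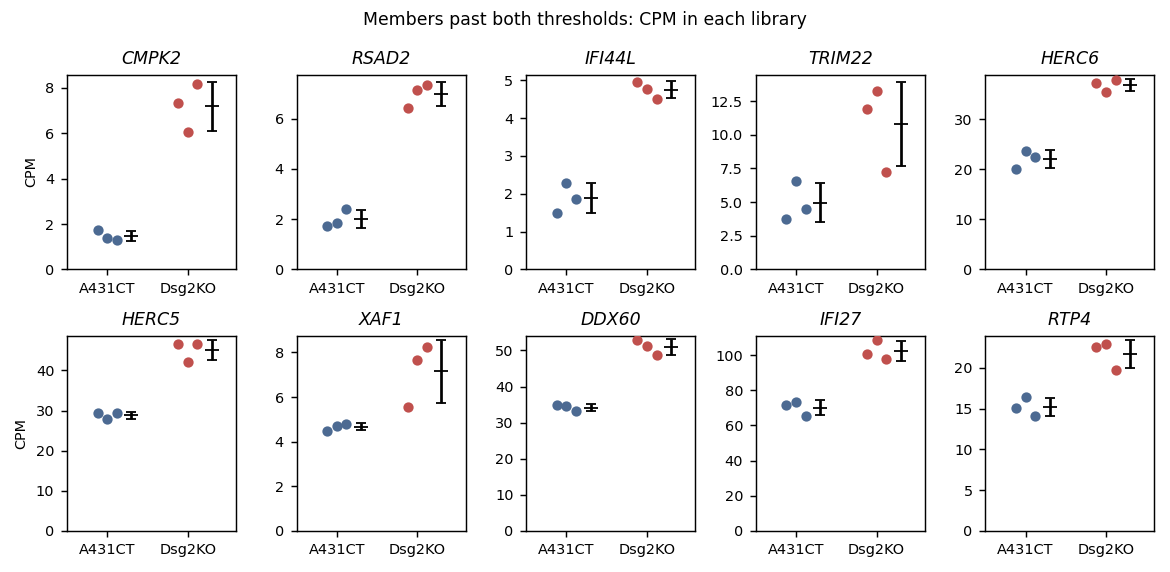
Each panel shows 1 of the 10 genes past both thresholds, with CPM on the y axis (from 0, with a scale of its own), a point for each library and the mean ± SD of each line (n = 3) as a bar. The Dsg2KO libraries lie above the A431CT libraries in all 10 panels, and TRIM22 and XAF1 show the widest spread among Dsg2KO libraries relative to their mean.

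Among helicases and large RNA-binding factors, DDX60 passed both thresholds. DDX60 is a helicase of the DExD/H family linked to RNA sensing. It was at 34.8, 34.5 and 33.2 CPM in A431CT and at 52.9, 51.1 and 48.7 CPM in Dsg2KO, a log2 fold change of 0.57 (SE 0.06, adjusted p = 6.96e-06, edgeR). The groups were separate by more than the spread within either. SAMD9, an antiviral and growth-restraining factor, had a log2 fold change of 0.38, and HELZ2 one of 0.16, both past the adjusted p alone. DDX60L (0.17), SAMD9L (0.09), ZNFX1 (0.04) and TDRD7 (0.03) did not pass. The 95% interval for DDX60L, -0.12 to 0.45, was wide at 110 to 169 counts.

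Of 8 membrane and entry factors, RTP4, a chaperone of receptor transport, passed both thresholds. It was at 15.02, 16.37 and 14.1 CPM in A431CT and at 22.5, 22.9 and 19.7 CPM in Dsg2KO. No libraries overlapped, and the log2 fold change of 0.52 (SE 0.10, adjusted p = 9.11e-04, edgeR) lay just above the threshold. Without A431CT 3, Dsg2KO 1 or Dsg2KO 2 it was 0.47, 0.49 or 0.48, so the call was lost on the fold change, with adjusted p-values between 5.25e-05 and 0.0063 over all alternatives.

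PLSCR1 (0.30), a phospholipid scramblase, IFITM1 (0.23), which blocks fusion of viruses with cell membranes, and LY6E (0.15), a GPI-anchored surface protein, passed the adjusted p alone. IFITM3 (0.11), IFITM2 (0.09) and SHISA5 (0.11) did not. The IFITM genes have closely similar sequences, and reads could be split between them by the counting, so their separate values are uncertain. BST2 (tetherin), which holds budding virions at the cell surface, was at 308.6, 318.4 and 285.1 CPM in A431CT and at 291.9, 317.2 and 276.0 CPM in Dsg2KO. The groups overlapped, and the log2 fold change of -0.04 had a 95% interval of -0.15 to 0.07.

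IFI27 and IFI6 are small hydrophobic membrane proteins of the same family, and XAF1 binds the caspase inhibitor XIAP. IFI27 was at 71.6, 73.2 and 65.2 CPM in A431CT and at 100.8, 108.8 and 98.0 CPM in Dsg2KO. All Dsg2KO libraries were higher, with a log2 fold change of 0.55 (SE 0.06, adjusted p = 4.77e-06, edgeR), and IFI27 was the single gene past both thresholds whose mean A431CT level exceeded 50 CPM. XAF1 was at 4.48, 4.72 and 4.81 CPM in A431CT and at 5.57, 7.65 and 8.22 CPM in Dsg2KO. The groups did not overlap, although Dsg2KO 1 lay closer to the A431CT libraries than to the other Dsg2KO libraries. The log2 fold change of XAF1 was 0.62 (SE 0.18, adjusted p = 0.020). The adjusted p rose above 0.05 with DESeq2 (0.051) and without A431CT 1 (0.059), Dsg2KO 2 (0.076) or Dsg2KO 3 (0.092), within a range of 0.0091 to 0.092 over all alternatives. PRAL, on the opposite strand, overlaps 38.3% of the exon bases of XAF1 and was itself higher (log2 fold change 0.70, adjusted p = 0.0010), and without strand information reads from PRAL and XAF1 cannot be told apart. IFI6 did not pass, at a log2 fold change of 0.27 (adjusted p = 0.074) with overlapping groups.

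In the nuclear and TRIM group, TRIM22 (chr11:5689610-5737089, GRCh38, plus strand), a RING-type ubiquitin ligase with antiviral activity, passed both thresholds. Its counts were 48, 89 and 58 in A431CT and 178, 216 and 117 in Dsg2KO, or 3.77, 6.56 and 4.50 CPM and 11.9, 13.2 and 7.23 CPM. Dsg2KO 3 lay far below the other Dsg2KO libraries and just above A431CT 2. The log2 fold change was 1.12 (SE 0.23, adjusted p = 0.0020, edgeR). IFI16, a sensor of DNA, passed the adjusted p alone at 0.18. TRIM21 (0.09), a cytosolic antibody receptor, TRIM25 (0.03), which ubiquitinates RIG-I, SP110 (0.01) and IFI35 (-0.09) did not pass.

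IFI44L and IFI44 are related proteins encoded side by side, IFI44L at chr1:78619902-78646145 (GRCh38, plus strand). IFI44L had 19, 31 and 24 counts in A431CT and 74, 78 and 73 counts in Dsg2KO. No libraries overlapped and the Dsg2KO libraries were tight, with a log2 fold change of 1.33 (SE 0.24, adjusted p = 6.09e-04, edgeR). IFI44, with 644 to 910 counts, had a log2 fold change of 0.12 (95% interval -0.01 to 0.24).

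The guanylate-binding proteins are large GTPases that coat intracellular pathogens. GBP3 (0.23) passed the adjusted p alone, and GBP1 was at 0.06. GBP2 was at 11.5, 10.9 and 7.91 CPM in A431CT and at 8.39, 7.28 and 7.67 CPM in Dsg2KO. A431CT 3 lay among the Dsg2KO libraries, and the log2 fold change of -0.38 (SE 0.16) did not pass (adjusted p = 0.081, edgeR). Without A431CT 3 GBP2 was at -0.53 (adjusted p = 0.015, range over the alternatives 0.015 to 0.28) and passed both thresholds in the lower direction. Outside these groups, the secreted glycoprotein LGALS3BP was at 0.02 (95% interval -0.05 to 0.10), and EPSTI1 was not tested, with 7, 9 and 2 counts in A431CT and 0, 5 and 1 in Dsg2KO.

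**Figure D3:**
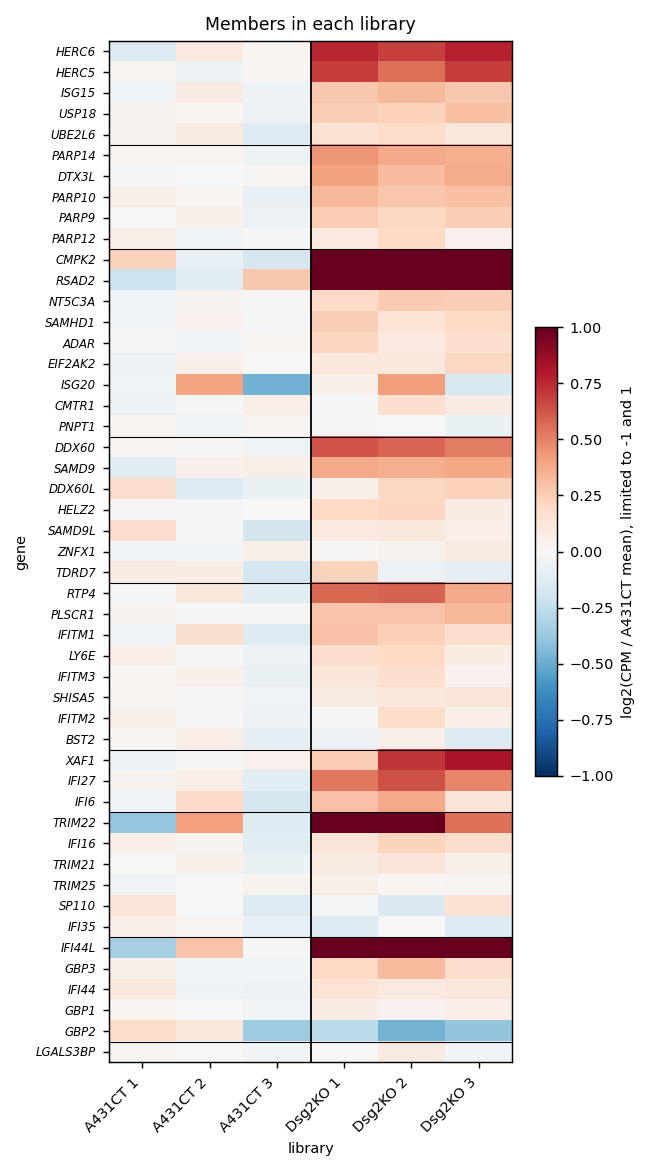
Rows are the 49 tested genes by role group (lines separate groups), columns the 6 libraries, and color the log2 ratio of CPM to the A431CT mean, limited to -1 and 1. Median values over the genes were 0.02, 0.02 and -0.05 in A431CT 1 to 3 and 0.20, 0.20 and 0.17 in Dsg2KO 1 to 3.

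Called genes were found at every level, and their share was highest among the genes with few reads in control cells. Of the 6 genes under 5 CPM in A431CT, 5 were called higher, with a median log2 fold change of 1.22 over the 6. Of the 17 genes between 5 and 50 CPM 4 were called (median 0.12), and of the 26 genes over 50 CPM 1 was called (median 0.16). Over all tested genes the share called higher also fell with the level, from 8.77% under 5 CPM to 2.94% and 0.708%. Across the 49 genes, which are not independent replicates, the log2 level in A431CT and the log2 fold change had a Spearman rho of -0.33 and a Pearson r of -0.59, and both axes use the A431CT libraries. No tested gene of the set had fewer than 17 counts in any library.

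Genes that rose were found both with and without the ISRE core. Of the 23 tested genes with the core in their window, 5 passed both thresholds and 13 the adjusted p alone, with a median log2 fold change of 0.23. Of the 19 without it, 4 passed both and 10 the adjusted p alone, with a median of 0.16. CMPK2, RSAD2, HERC6 and XAF1 rose without the core in the window, and BST2, ISG20 and LGALS3BP carried it without passing the test. A match or its absence in 300 bases is a description of these letters and not of binding.

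Chosen pairs of nearby genes of the set were then compared as ratios of counts within each library, which do not depend on library scaling. The 7 pairs are not all the nearby pairs. DTX3L to PARP9, with starts 239 bases apart, was not among them. PARP14 and PARP9, and GBP3 and GBP2, have another gene of the set between them. In each pair the gene with the larger log2 fold change was put first, so the direction of the ratio was set by that order and is not a result. In 7 pairs, the exact permutation test over the 6 libraries (two-sided) could not go below p = 0.1. IFI44L per IFI44 was 0.0268, 0.0457 and 0.0373 in A431CT and 0.0869, 0.0860 and 0.0802 in Dsg2KO. The ratio was higher in every Dsg2KO library, by 1.24 on the log2 scale (exact p = 0.1, 0.14 adjusted over the 7 pairs). The ratio of DDX60 to DDX60L went from a mean of 3.86 to 5.12, that of SAMD9 to SAMD9L from 3.83 to 4.60, that of PARP14 to PARP9 from 2.30 to 2.57 and that of GBP3 to GBP2 from 10.9 to 16.4. In these 4 pairs the libraries did not overlap either, each with exact p = 0.1. The ratio of HERC6 to HERC5 overlapped between the lines (0.766 ± 0.0837 and 0.816 ± 0.0217, SD, n = 3, exact p = 0.5), as did that of CMPK2 to RSAD2 (0.769 ± 0.226 and 1.03 ± 0.160, exact p = 0.2). Leaving out A431CT 1 lowered the log2 difference of SAMD9 to SAMD9L from 0.28 to 0.13 and that of HERC6 to HERC5 from 0.097 to 0.016. Without A431CT 3, that of CMPK2 to RSAD2 went from 0.45 to 0.23. Without A431CT 2, that of HERC6 to HERC5 was 0.17.

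**Figure D4:**
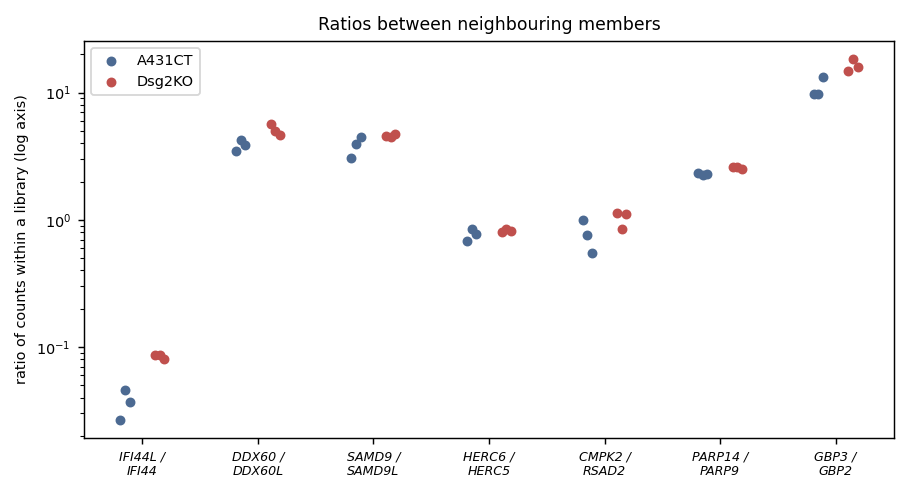
The y axis (log scale) gives the ratio of the counts of 2 genes within a library, with a point for each of the 3 A431CT and 3 Dsg2KO libraries. The 7 pairs were chosen, and the gene with the larger log2 fold change is first in each. The lines are apart in 5 pairs, most in IFI44L per IFI44, and overlap for HERC6 per HERC5 and CMPK2 per RSAD2.

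Several of the genes lay in regions whose other genes were lower in Dsg2KO cells. The 20 nearest tested genes on each side had a median log2 fold change of -0.40 around ISG15, -0.31 around IFI6, -0.25 around IFI44L and IFI44, -0.21 around HELZ2 and -0.20 around SAMHD1. All of these genes had positive log2 fold changes themselves. Relative to its neighbours ISG15 was at 0.69, IFI6 at 0.58, IFI44L at 1.58 and IFI44 at 0.37. Other genes lay among higher neighbours, and their values shrank with the subtraction. Among those past the adjusted p alone, LY6E went from 0.15 to 0.03 and EIF2AK2 from 0.14 to 0.07. NT5C3A went from 0.24 to 0.10 and IFI16 from 0.18 to 0.11. RTP4 lay in a region with a median of 0.09 and was at 0.43 after the subtraction, under the fold change minimum, while ISG15 was above it. Of the 10 genes past both thresholds, 9 stayed above the minimum. The adjusted p was kept from the main fit, and the difference from the neighbours was not tested.

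**Figure D5:**
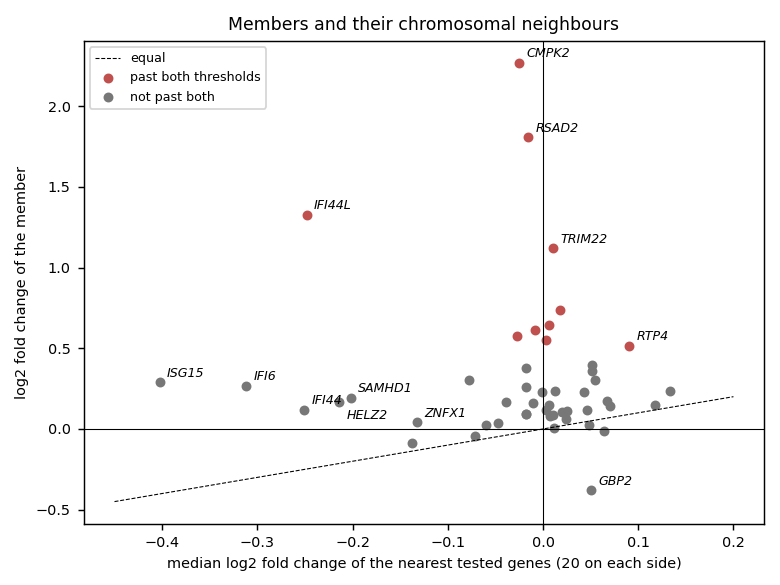
The x axis gives the median log2 fold change of the 20 nearest tested genes on each side, and the y axis that of the gene itself, for each tested gene of the set with a known position. ISG15, IFI6, IFI44L and IFI44 lie to the left, with neighbours between -0.40 and -0.25, and still above 0 on the y axis.

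The rest of the interferon pathway was read from 57 genes in 6 lists, of which 34 were tested. Of these 12 passed both thresholds in the higher direction and 0 in the lower in edgeR, against 2.99% and 3.03% of all tested genes. At an unadjusted p under 0.05, 3 of 34 were lower (8.82%, against 20.04% of all tested genes), and DESeq2 called 12 in both directions together. None of the 21 interferon ligands in the table could be tested. Summed over them there were 5, 6 and 11 counts in the A431CT libraries and 5, 5 and 11 in the Dsg2KO libraries, with no ligand above 7 counts. The type I interferon IFNB1 had 0 counts in each A431CT library and 1, 2 and 1 in Dsg2KO, which is at or under the floor of 3 counts in every library. The epithelial interferon IFNE had 5, 5 and 7 counts in A431CT and 3, 1 and 5 in Dsg2KO. No ligand had enough reads at this depth for a comparison of the lines.

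Downstream of the ligands, the receptor chain IFNGR2 (0.72) and the kinase JAK2 (0.53) passed both thresholds among 8 tested receptors and kinases, and IFNAR1 (0.24) passed the adjusted p alone. IFNGR2 and IFNAR1 lie on chromosome 21, where their neighbours had a median of 0.38. Of the ISGF3 and IRF factors, IRF9 passed both thresholds, with 9, 28 and 23 counts in A431CT and 77, 145 and 102 in Dsg2KO. All Dsg2KO libraries were higher, and the log2 fold change of 2.15 (SE 0.31, adjusted p = 1.06e-04, edgeR) was close in size to that of CMPK2. STAT2 (0.49) and IRF1 (0.14) passed the adjusted p alone. SOCS3 (0.73) passed both thresholds among 5 feedback inhibitors, and PTPN6 (-0.41) passed the adjusted p alone in the lower direction.

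Of 10 classical effectors of the IFIT, OAS and MX families 6 passed both thresholds, IFIT1 (1.05), IFIT2 (0.69), IFIT3 (0.76), OAS2 (0.91), MX1 (1.22) and MX2 (1.99). Of 4 tested RNA sensors 2 passed, DDX58 (0.60) and IFIH1 (0.62). MX1 and MX2 also lie on chromosome 21, among neighbours with medians of 0.39 and 0.38. The median log2 fold change over the 10 classical effectors was 0.72, compared with 0.17 over the 49 effectors described above, a difference that was not tested. In these bulk libraries, a change in the share of cells with a transcript and a change in its amount per cell cannot be told apart.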

How the data were processed

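RNA-seq of A431CT and Dsg2KO cells (3 libraries each) was used as raw gene counts. Per the labels and methods, polyA libraries were sequenced paired-end, and the authors trimmed, aligned to GRCh38 and counted reads with CLC Genomics Workbench. The deposited table holds whole-number counts without normalization. The gene annotation and strand setting are not given in the sources used here.

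Counts were fitted with edgeR 4.0.16 in R 4.3.3 over all genes passing filterByExpr (minimum count 10, minimum total 15), with TMM factors, quasi-likelihood tests without covariates and Benjamini-Hochberg adjustment over 12857 genes. A call needed an adjusted p under 0.05 together with a change of at least 0.5 on the log2 scale. CPM used TMM factors. On simulated data for this comparison (12777 genes), 194 of 200 changed genes and 3 unchanged genes were called. DESeq2 1.42.0, other filters and scalings, a replicate block and leaving out each library were alternatives. Replicates differed by chi-square values of 2.63 to 4.16 per degree of freedom, above counting error.

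Positions came from GENCODE version 44 (GRCh38) and promoters from RefSeq. The genes and lists were chosen with earlier results of these data known. Every effector is named by role group. Values in every library are given for the 5 called genes with the largest change, the 5 with the smallest adjusted p and those whose call depended on 1 library, and for DDX60, ISG15, BST2 and GBP2, added after their values were seen. A gene of the pathway lists is not reported here by name.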

Additional observations from a re-analysis of the deposited data

How the results depend on the processing

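The 10 effectors called higher numbered 8 to 10 under every other filter, scaling, tool or left-out library, 27 with no fold change minimum and 4 with a minimum of 1, and 8 of the 10 were called in every alternative fit. The call for effectors lower was 0, or 1 (GBP2) without A431CT 3, a range of 0 to 1 over the left-out libraries. All genes called numbered 775, 3802 with no minimum and 250 with a minimum of 1, and the 12 pathway genes became 20 and 4. With a replicate block the counts were 10 effectors and 769 genes. The replicate numbers did not pair the libraries (correlations of -0.0027, 0.014 and 0.054), so the block is not a paired analysis.

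Signs reversed in effectors near 0. With library totals PNPT1 was at 0.0073. With the neighbours' median subtracted, TDRD7 was at -0.022, BST2 at 0.028, IFI35 at 0.052 and SP110 at -0.0060. Over the left-out libraries ISG20 ranged from -0.070 to 0.37, PNPT1 from -0.038 to 0.0096, TDRD7 from -0.077 to 0.086, BST2 from -0.097 to 0.0025, SP110 from -0.076 to 0.077 and LGALS3BP from -0.013 to 0.047. The cause was not tested. In the 7 chosen pairs of nearby genes the gene with the larger log2 fold change came first, so the direction of the ratio was set by that order. Leaving out libraries, added after the data were seen, did not reverse it. The differences lay between 0.016 (HERC6 to HERC5, without A431CT 1) and 1.41 (IFI44L to IFI44, without A431CT 2). With 3 libraries a line, changes of low genes such as CMPK2 are known with less precision.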
